A study of Rattus norvegicus with 3 samples.

Results

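The baseline profile described here is that of rat tibialis anterior muscle electroporated with an empty plasmid. It was read from 1 of the 3 arrays of the series, the empty vector array. That array held RNA pooled in equal amounts from 6 male Wistar rats aged 11 weeks. The rats had been on a high-fat diet, 45% fat by energy, for 3 weeks. After 2 weeks of it they received 150 µg of pcDNA3.1 without an insert by injection and electric pulses, and the muscle was taken 8 days after electroporation. The other arrays, which carried a Plin2 or a Plin5 plasmid after the same diet and procedure, were not compared here. The labels name the opposite leg as a sham control, and it was not analysed here, so no value below shows what the diet, the plasmid or the electroporation changed.

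Of 29214 probe sets, 15310 carried a single gene symbol, and the highest probe set of each symbol gave 14506 genes. Their levels, in log2 units of the deposited array signal, ran from 2.41 to 14.04 with a median of 7.32. The top 5% were called abundant, which set the limit at 10.97 and held 726 genes (5.00% of all genes). Genes at or below 5.01, the 95th percentile of 188 olfactory and vomeronasal receptor genes, were called near background, and there were 3041 of them (21.0%). The remaining 10739 genes (74.0%) formed the middle class. The 188 receptor genes left out those with the newer Or symbols. With these included there were 1240 receptor genes, and the near-background limit would be 5.16. The limits fall in a continuous range. The last genes inside the abundant class were Ky (10.98), Rbbp7 (10.98) and Mrpl4 (10.97), and the first outside were Entpd4, Hnrnpab and Ctsh (each 10.97). At the lower limit Tmem179, Fbp1 and Prb1 (each 5.01) lay just above it, and Tmem130 (5.01), Ccr4 (5.00) and Clca2 (5.00) just below.

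With 1 array there was no spread between samples, and none of the orders below was tested. Probe sets bind their targets with different strength and are not scaled to gene length, so a level is an array signal and not a number of transcripts. A measure of this came from 527 genes with more than 1 probe set, whose highest and lowest probe sets differed by a median of 0.68 log2 units. The 75th percentile of that gap was 1.62, and the largest was 7.53. Genes are named below from high to low signal, and neighbours closer than these gaps are not resolved. Low levels were also coarse. Of the near-background genes, 2336 (76.8%) had exactly the same level as at least 1 other gene, against 34.0% of the middle class and 8 abundant genes. As many as 76 genes stood at 3.43. Of the near-background genes, 2165 (71.2%) also had a deposited value identical on all 3 arrays. So did 3051 middle genes (28.4%) and 28 abundant genes, and 36.2% of all genes. Such levels cannot be ordered, and the cause of the identical values was not tested. The classes were themselves cut from these levels, so a count of list members in a class describes the array and is not a test.

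**Figure D1:**
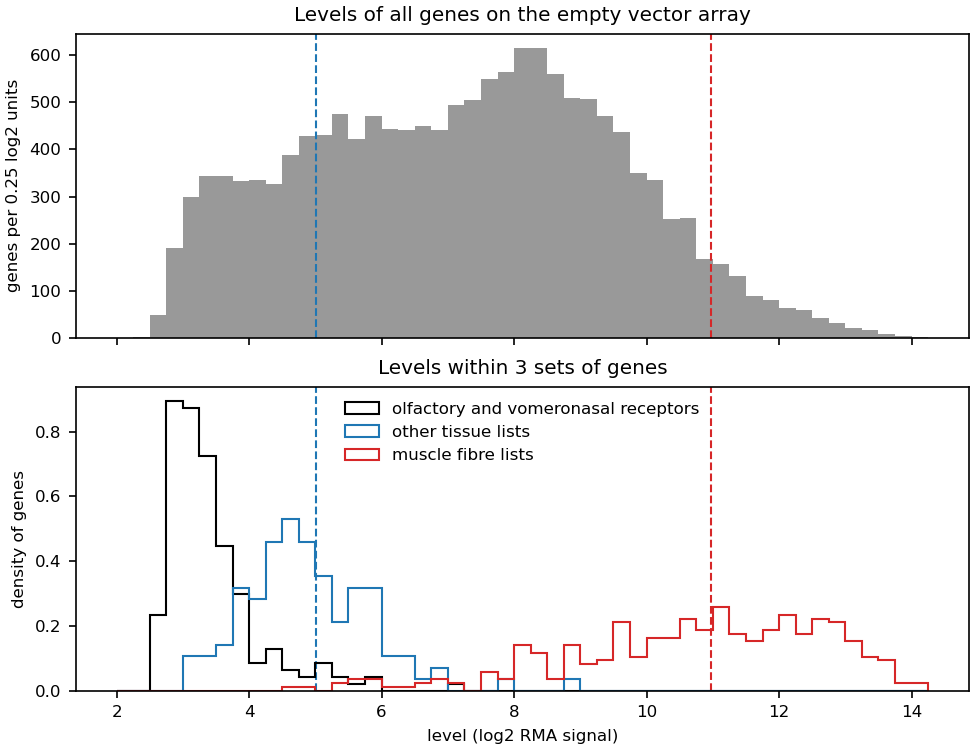
Number of genes by level in log2 RMA signal on the empty vector array (upper panel) and the density of levels in 3 sets of genes (lower panel), with dashed lines at the limits of the near-background (5.01, blue) and abundant (10.97, red) classes. Genes of the muscle fibre lists lie mostly to the right of all genes, and the receptors and other-tissue genes to the left.

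Tibialis anterior is a muscle of mainly fast fibres in the rat. Fast fibres contract through myosins and troponins of their own, release and recapture calcium quickly, and draw much of their ATP from creatine phosphate, glycogen and glycolysis. Oxidative and slow fibres depend more on mitochondria, myoglobin and fatty acids. The muscle also holds fibroblasts, blood vessels, nerve, tendon and immune cells, whose RNA is part of the same extract.

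Set beside the label of the sample, the defining genes of skeletal muscle had high levels. Of 341 measured genes on 18 muscle fibre lists, 173 (50.7%) were abundant and 2 near background, against 5.00% and 21.0% of all genes. The median of these genes was 11.01, and 322 of them lay above the median of all genes. On 7 lists of genes known from liver, pancreas and gut, kidney and lung, brain and pituitary, retina and lens, gonads and skin, 0 of 113 genes were abundant. Of those, 68 (60.2%) were near background, and their median was 4.79. The lists were chosen by what the genes are known for, with earlier results of these arrays known.

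The 30 genes of highest level included 21 from the muscle fibre lists. Skeletal alpha-actin, Acta1, stood first at 14.04. It was followed by the glycolytic enzyme Gapdh (14.03) and by Mb (13.90), the oxygen-binding myoglobin. Next came Aldoa (13.79) and Eno3 (13.75), both enzymes of glycolysis, the muscle creatine kinase Ckm (13.71), and Atp2a1 (13.70), the calcium pump of fast fibres. Glycogen phosphorylase Pygm (13.70) and lactate dehydrogenase Ldha (13.66) stood in the same range. Carbonic anhydrase Car3 (13.57) and the imprinted non-coding RNA H19 (13.47) were the highest genes after Mb that were on no list. All of these lay within 0.6 log2 units of the top, a span that the gaps between probe sets of single genes do not resolve. Of the 100 highest genes, 61 were on a muscle fibre list, 9 on a list of general cell functions and 2 on a list of another cell type.

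Among proteins of the contractile apparatus, all 15 measured fast sarcomere genes were abundant, with a median of 13.36 at the 99.8th percentile of genes. The fast myosin heavy chains Myh4 (13.58, type IIb), Myh1 (13.36, type IIx) and Myh2 (12.66, type IIa) were all among them. The same held for the light chains Myl1 (13.59) and Myl11 (13.50) and for the fast troponins Tnnc2 (13.57), Tnnt3 (13.38) and Tnni2 (13.24). Actn3, the alpha-actinin of fast Z-discs, stood at 13.52, and the lowest gene of the list was the myosin light chain kinase Mylk2 (11.97). These genes have close relatives, so part of a signal may come from a neighbour in the family.

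Slow sarcomere genes lay lower and were spread more widely. Of 12 measured, 3 were abundant, 9 were in the middle class, and the median was 10.45 (91.9th percentile). The abundant ones were Mybpc1 (12.80), the slow isoform of myosin-binding protein C, the slow light chain Myl3 (12.51) and the slow heavy chain Myh7 (11.17). The slow troponins stood at 10.66 (Tnni1), 9.91 (Tnnt1) and 9.40 (Tnnc1), each below its fast counterpart by 2.59 log2 units or more. Myl2, the other slow light chain, was at 10.29, and Ankrd2, a stretch-responsive gene of slow fibres, at 9.83. Myh7b (6.80) was the only slow gene below the median of all genes.

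Developmental and cardiac genes were mixed. Actc1, the cardiac alpha-actin that is made in developing muscle, was at 13.33. Its sequence is close to that of Acta1, and the deposited values do not separate them. Embryonic myosin Myh3 stood at 10.86, just under the abundant limit, and cardiac troponin T, Tnnt2, at 9.96. The other members lay far lower, namely Myh6 (6.51), Myl7 (5.83), Nppb (5.59), Nppa (5.42) and Tnni3 (5.37), which are genes of heart muscle. The median of the 8 genes was 6.17, and none was near background.

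Genes that hold the sarcomere together were among the highest lists. Of 25 measured genes of the Z-disc, M-band and their giant proteins, 20 were abundant (median 12.23). They were led by the intermediate filament desmin, Des (13.39), titin, Ttn (13.35), the small heat shock protein Hspb6 (13.19) and the alpha-actinin Actn2 (12.97). The ubiquitin ligase Trim63, an atrophy gene that also sits at the M-band, was at 10.41. The lowest members were Klhl40 (10.11), Pdlim7 (9.96) and Pdlim5 (8.32). Genes of the dystrophin complex and the fibre membrane were less high, with 2 of 12 abundant, Sgca (11.56) and Dysf (11.02), and dystrophin itself, Dmd, at 10.81.

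Calcium handling genes, which couple excitation to contraction, had 16 of 22 abundant (median 11.40). After Atp2a1 came the cation channel Tmem38a (13.24), Sypl2 (13.22), a protein of the triad membrane, the calcium buffer parvalbumin, Pvalb (13.09), typical of fast rodent fibres, and the release channel Ryr1 (12.97). The slow and cardiac members were present too, with Casq2 at 12.20, sarcolipin, Sln, at 12.14 and the pump Atp2a2 at 11.84. Phospholamban, Pln, an inhibitor of Atp2a2, was the lowest at 6.87, and the other low members were Itpr1 (8.38) and Asph (8.76). Casq1 and Cacna1s were not analysed here.

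Membrane excitation genes, from channels to pumps, had 5 of 12 abundant. The pump regulator Fxyd1 (12.77) was highest, followed by the sodium pump beta subunits Atp1b1 (11.65) and Atp1b2 (11.29). The muscle sodium channel Scn4a was at 11.12, the chloride channel Clcn1 at 10.79 and the water channel Aqp4 at 10.22. Junctional genes had 2 of 16 abundant, the acetylcholine receptor subunit Chrna1 (11.24) and the adhesion molecule Ncam1 (11.11). The signals of the fetal receptor subunit Chrng (8.01) and the adult subunit Chrne (7.98) were nearly equal. Signals of different probe sets do not give the proportion of the transcripts. The lowest junctional gene was Colq (6.58), which anchors acetylcholinesterase.

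**Figure D2:**
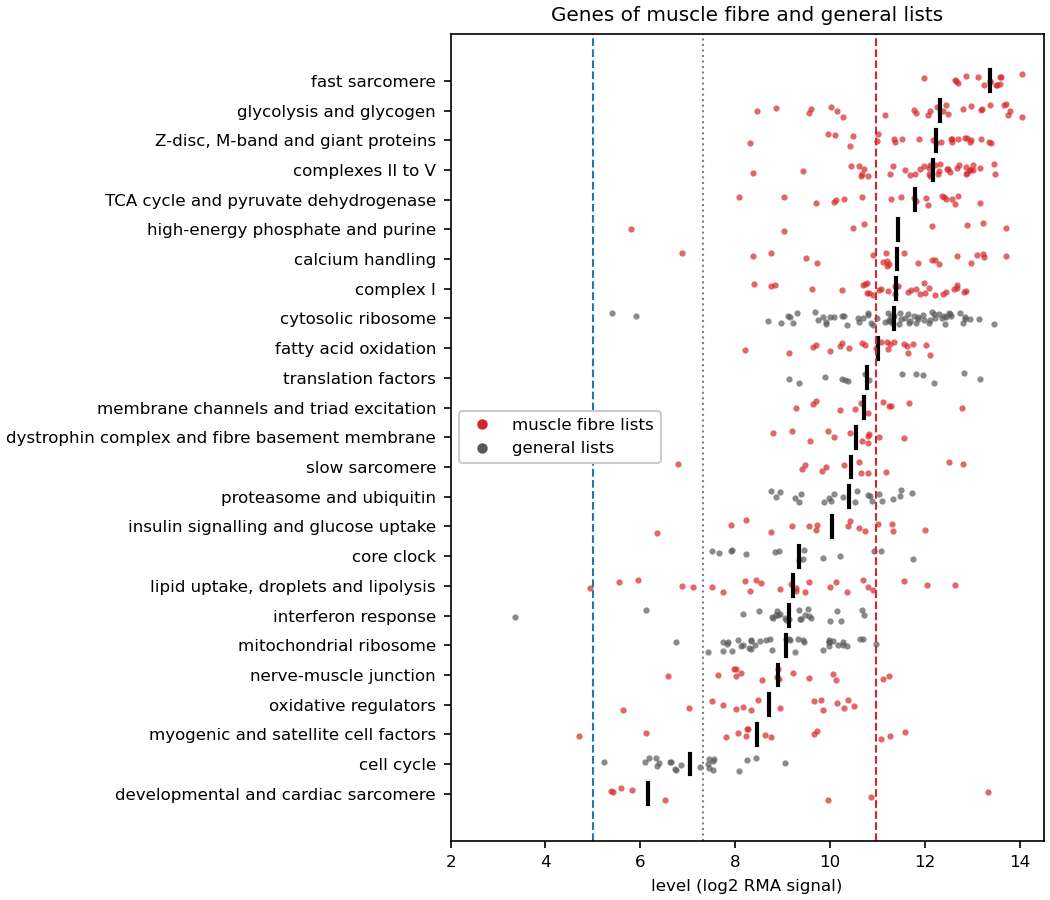
Level in log2 RMA signal of each measured gene (points) on lists of muscle fibre genes (red) and of general cell functions (grey), with the list median (black bar), the median of all genes (dotted line) and the limits of the near-background (blue dashes) and abundant (red dashes) classes. Fast sarcomere genes (median 13.36) lie wholly above the abundant limit, and cell cycle genes (7.06) and developmental and cardiac genes (6.17) have the lowest medians.

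Among genes of energy supply, glycolysis and glycogen metabolism had 19 of 26 genes abundant (median 12.31, 98.9th percentile), and none near background. Beyond the enzymes already named, Tpi1 (13.36), Pgam2 (13.20), Gpi (13.17) and Pfkm (12.96) were high, as was Gys1 (11.82), which builds glycogen. The genes below the limit included the bifunctional enzyme Pfkfb1 (10.26), the hexokinases Hk2 (10.02) and Hk1 (8.46), the fructose bisphosphatase Fbp2 (9.60) and Pfkfb3 (8.86). In phosphate and purine metabolism, Ckm, the adenine nucleotide carrier Slc25a4 (13.21), AMP deaminase Ampd1 (12.89) and the creatine transporter Slc6a8 (12.14) were abundant. The brain creatine kinase Ckb (9.03) and the ubiquitous mitochondrial Ckmt1 (5.81) were the lowest of the 8 genes.

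Of 38 subunits and partners of respiratory complexes II to V, 30 were abundant (median 12.16), led by Atp5f1d (13.47), Cox6c (13.46), Atp5f1b (13.15) and Cox6a2 (13.02). Complex I had 22 of 33 abundant (median 11.38), led by Ndufc2 (12.87), Ndufa4 (12.82) and Ndufs4 (12.68), with Ndufa10 (8.40) lowest. In the tricarboxylic acid cycle and pyruvate dehydrogenase list 13 of 20 were abundant (median 11.78), led by Mdh2 (13.15), Idh3b (12.69) and Idh3g (12.63). The members of the complexes II to V list spanned 13.47 to 8.37, and the lowest, Atp5me, is a subunit of the same ATP synthase as Atp5f1d.

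Pdk4, the kinase that shuts down pyruvate dehydrogenase when fat is burned, was at 12.57, Pdk2 at 11.80, Pdk1 at 9.02 and Pdk3 at 8.07. Fatty acid oxidation had 11 of 22 genes abundant, a median of 11.01 and none near background. The long-chain dehydrogenase Acadl (12.11), both subunits of the trifunctional protein, Hadha (12.02) and Hadhb (11.64), and the muscle carnitine palmitoyltransferase Cpt1b (11.75) led it. By its other probe set Hadha was at 8.92, in the middle class. The lowest were Eci2 (9.63), the liver-type Cpt1a (9.13) and Decr1 (8.20), which handle unsaturated fatty acids except for Cpt1a. The list of mitochondrial ribosomal proteins had 1 of 39 abundant (Mrpl4), against 5.00% of all genes, with a median of 9.08. Mrpl42, which was not on the list, was also abundant (13.03 by its highest and 9.73 by its lowest probe set).

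Lipid uptake and droplet genes ranged from 12.62 to 4.95. Of 26, 3 were abundant, namely Fitm1 (12.62), which aids droplet formation, the fatty acid binding protein Fabp3 (12.05) and the fatty acid transporter Cd36 (11.55). Adipose triglyceride lipase, Pnpla2 (10.90), and lipoprotein lipase, Lpl (10.79), lay just below the limit. The droplet coat genes were spread from Plin2 (9.99) through Plin5 (7.52) and Plin3 (7.10) to Plin1 (5.94), which coats the droplets of fat cells. The lipase cofactor Abhd5 was at 9.17 and the lipase inhibitor G0s2 at 8.20. Cidec (5.55) and Cideb (4.95), of the CIDE family of droplet proteins, were the lowest, and Cideb was near background.

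All 16 measured regulators of oxidative metabolism, mainly nuclear receptors and coactivators, were in the middle class, with a median of 8.71. They ranged from Nr4a1 (10.51), Rxrg (10.36), Rxra (10.29) and Ppargc1a (10.15) down to Pparg (7.51), Nr4a3 (7.03) and Esrrb (5.64). Of 16 insulin signalling genes 4 were abundant. These were the kinases Akt2 (12.00), Akt1 (11.29) and Gsk3b (11.01) and the insulin-responsive glucose transporter Slc2a4 (11.33). The insulin receptor Insr stood at 10.61 and its substrate Irs1 at 10.37, and the lowest were Slc2a1 (8.23), Pik3cb (7.90) and Trib3 (6.35).

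Of 14 myogenic factors and satellite cell genes, 3 were abundant, Mef2a (11.57), Myf6 (11.25) and Mef2d (11.08), all transcription factors active in mature fibres. Among genes of muscle precursors, the fusion factor Mymk (9.72), Myod1 (9.65), Cdh15 (8.27) and Myf5 (8.25) were in the middle class. Myog, on the junctional list, was at 8.89, and myostatin, Mstn, at 8.05. The lowest were Chodl (7.79), Calcr (6.11), a receptor of resting satellite cells, and Pax3 (4.71), which was near background. Pax7 was not analysed here. Cell cycle genes had 0 of 22 abundant and 0 near background, against 5.00% and 21.0% of all genes, with a median of 7.06. Pcna (9.06), Mcm7 (8.44) and Mcm2 (8.25) led them, and Aurka (6.11) and Bub1b (5.24) were the lowest.

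Isoform families set the muscle form of a protein beside its relatives. The muscle form of 25 families was set from textbook knowledge after the values had been seen, so what follows is a description. Of the families with more than 1 measured member, 4 had no single muscle form set: myosin light chains, tropomyosins, pyruvate dehydrogenase kinases and perilipins, where Plin5, high in oxidative muscle, lay below Plin2. In 24 of the 25 the signal of the muscle form was the highest, by a median of 2.59 log2 units over the next member. The lead exceeded 0.68, the median gap between probe sets of 1 gene, in 20 families, and 1.62, the 75th percentile, in 18. Gys1 (11.82) stood beside a liver form, Gys2, that was near background, so its lead has no exact size. The widest leads over a member above the near-background limit were those of Aldoa over the brain form Aldoc (7.70), Ryr1 over Ryr3 (6.37) and Pfkm over Pfkl (5.29). Pygm led the brain form Pygb by 4.95 and Scn4a led Scn3a by 4.91. Aldoc (6.10) and Scn3a (6.21) lay below 6.35, the 95th percentile of the other-tissue genes. The leads of Aldoa and Scn4a therefore have no exact size either.

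Narrow leads were not resolved. They were those of Acta1 over Actb (0.64), Cox8b over Cox8a (0.29), Myh4 over Myh1 (0.22) and Ucp3 (10.98) over Ucp2 (10.90). The exception was elongation factor 1 alpha, where the muscle and nerve form Eef1a2 (12.83) stood below the general form Eef1a1 (13.16). Members known from other organs marked the bottom of their families. These were Gys2 (3.86, liver), Ldhc (4.61, testis), Ryr2 (4.65, heart), Slc2a2 (4.39, liver and pancreas), Cox8c (4.55, testis), Ucp1 (4.31, brown fat) and the gut and liver binding proteins Fabp2 (3.86) and Fabp1 (3.90), all near background.

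**Figure D3:**
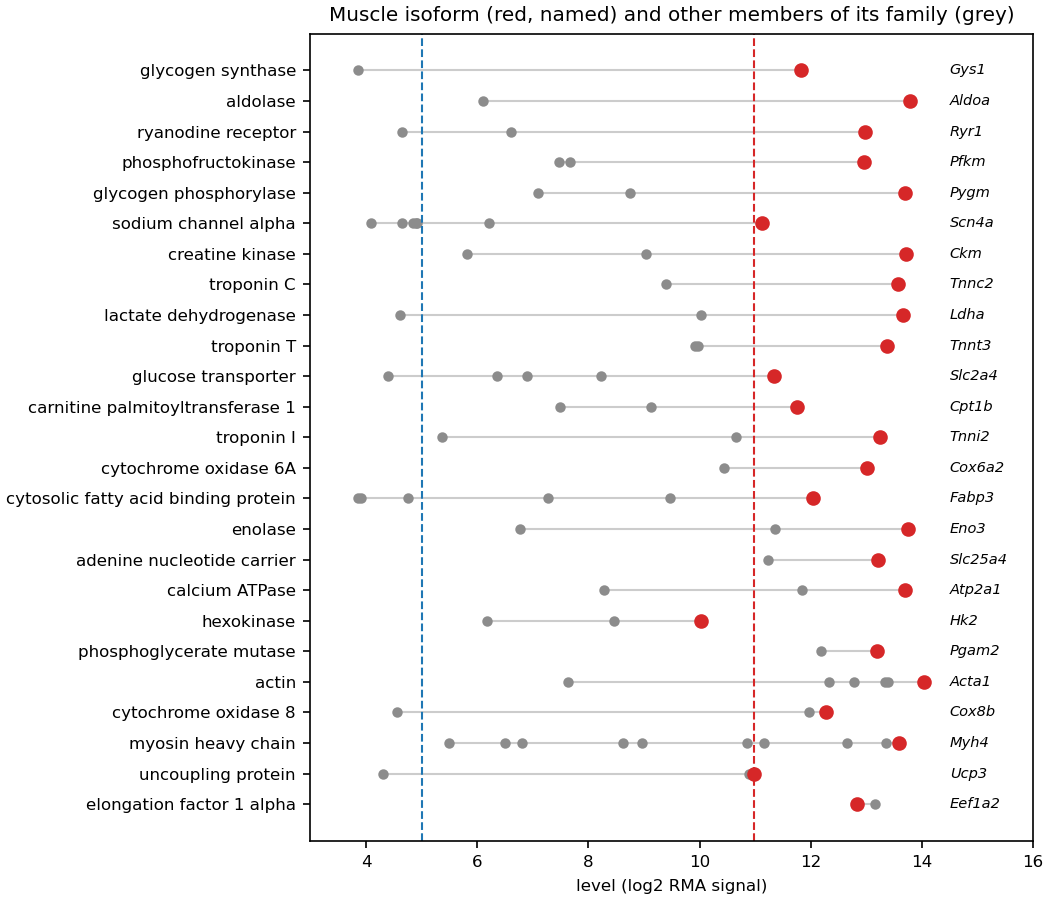
Level in log2 RMA signal of the members of 25 protein families, with the form usual in skeletal muscle in red and named at the right and the other measured members in grey; the dashed lines are the limits of the near-background (5.01) and abundant (10.97) classes. The muscle form has the highest signal in all families but elongation factor 1 alpha, and families are ordered by the difference to the next member; that of glycogen synthase is against a near-background gene, and those of actin, cytochrome oxidase 8, myosin heavy chain and uncoupling protein are 0.64 or less and not resolved.

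General cell functions were led by translation. Of 67 cytosolic ribosomal protein genes 42 were abundant (median 11.35), with Rps29 at 13.45, Rps4x at 13.14 and Rps2 at 12.95. Of the 67 genes, 51 had more than 1 probe set, against 3.63% of all genes, and the highest was taken each time. With the lowest probe set of every gene, and the top 5% set anew, 27 were abundant, with a median of 10.52. Of the 16 ribosomal genes with a single probe set 10 were abundant. Ribosomal protein genes have many processed copies in the genome. The lowest were Rpl24 (8.68), Rpl15 (5.92) and Rps27 (5.41). Of 14 translation factors 6 were abundant, including Eif5a (12.19) and Eef2 (11.96). Proteasome and ubiquitin genes had 6 of 22 abundant, among them Psmb5 (11.73), Psmb2 (11.50) and the muscle ubiquitin ligase Fbxo32 (11.47).

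Promoter sequences were not used to choose the classes. They were taken from RefSeq (build GRCr8) as 250 bases before to 50 bases after the first listed start, and 11950 of the 14506 genes had one. In mammals, promoters rich in CpG usually serve genes active in many tissues, whereas a TATA box near the start is common in strongly tissue-restricted genes. Abundant genes with and without TATAAA are shown as illustrations, beside liver genes that were near background here. The stretch printed is the 100 bases before the start, 5′ to 3′ on the gene's strand.

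For the highest genes of the muscle fibre lists with TATAAA in the last 50 bases, capitals mark TATAAA and, in Acta1, a CArG box, the binding sequence of serum response factor. They are Acta1 (14.04, chr19:68784195-68784294, minus strand), Gapdh (14.03, chr4:159652468-159652567, minus), Myh4 (13.58, chr10:52422048-52422147, plus) and Myh1 (13.36, chr10:52384812-52384911, plus).
Acta1: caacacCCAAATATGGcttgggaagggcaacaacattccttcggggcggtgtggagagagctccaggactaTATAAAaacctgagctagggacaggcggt
Gapdh: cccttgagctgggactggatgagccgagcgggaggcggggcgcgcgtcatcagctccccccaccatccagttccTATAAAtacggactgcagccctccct
Myh4: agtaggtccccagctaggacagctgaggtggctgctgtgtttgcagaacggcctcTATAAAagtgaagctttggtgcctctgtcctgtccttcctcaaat
Myh1: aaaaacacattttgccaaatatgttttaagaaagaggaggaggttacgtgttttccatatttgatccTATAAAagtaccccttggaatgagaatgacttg

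Gapdh is active in most tissues, and its CpG ratio of 0.62 is also above the limit used for the next set. For the highest genes of the complex I, complexes II to V and tricarboxylic acid cycle lists without TATAAA in the whole window and with a CpG ratio above 0.6, capitals mark each CpG. They are Atp5f1d (13.47, chr7:10214351-10214450, minus), Mdh2 (13.15, chr12:26543842-26543941, minus) and Atp5f1b (13.15, chr7:1099958-1100057, plus).
Atp5f1d: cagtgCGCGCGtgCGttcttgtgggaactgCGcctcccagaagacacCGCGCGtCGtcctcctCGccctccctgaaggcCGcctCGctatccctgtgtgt
Mdh2: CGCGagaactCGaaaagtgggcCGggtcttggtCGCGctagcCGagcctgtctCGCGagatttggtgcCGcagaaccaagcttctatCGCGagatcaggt
Atp5f1b: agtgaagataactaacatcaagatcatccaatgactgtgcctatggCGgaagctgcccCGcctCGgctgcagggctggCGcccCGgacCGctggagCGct

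For near-background liver genes with TATAAA in the last 50 bases, capitals again mark TATAAA. They are the fibrinogen chain Fgg (4.15, chr2:170652983-170653082, plus) and the cytochrome Cyp2c11 (3.30, chr1:246175116-246175215, plus).
Fgg: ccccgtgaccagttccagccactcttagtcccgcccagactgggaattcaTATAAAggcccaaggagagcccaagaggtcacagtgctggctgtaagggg
Cyp2c11: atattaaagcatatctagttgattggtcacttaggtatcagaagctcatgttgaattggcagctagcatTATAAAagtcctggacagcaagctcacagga

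These examples were picked for their letters and stand for no share. Over all matched genes, 7.93% of promoters held TATAAA on the gene's strand. The share was 7.59% (46 of 606) in the abundant class, 5.17% (457 of 8845) in the middle class and 17.8% (445 of 2499) near background. Without olfactory and vomeronasal receptors, those with newer symbols included, the near-background share was 13.7% (207 of 1510). In the 50 bases before the start, where a TATA box lies, the shares were 4.46%, 2.23% and 5.44% in the same order, 7.22% near background without the receptors, and 3.01% of all matched. With the genes cut into 10 groups of rising level, the share was 22.7% in group 1, 2.81% in group 8 and 6.65% in group 10. In the 50 bases it was 5.73% in group 1, 5.77% in group 3, 0.83% in group 8 and 3.45% in group 10. Among the lists, 4 of 13 fast sarcomere promoters held TATAAA, against 1 of 31 for complex I, 1 of 33 for complexes II to V and 0 of 19 for the tricarboxylic acid cycle list. Lists varied within each kind. There were 0 of 15 for calcium handling, 0 of 12 for the junction and 0 of 10 for the dystrophin complex, but 3 of 11 for translation factors and 4 of 19 for the interferon response. The muscle fibre lists together had 29 of 284 (10.2%) and the general lists 16 of 166 (9.64%). The shares were higher on the lists of other cell types, 17 of 111 (15.3%), and of other tissues, 22 of 92 (23.9%). All 4 of the fast sarcomere matches lay in the 50 bases before the start.

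The CpG ratio, the observed over the expected number of CpG given the base composition, had a median of 0.79 in abundant, 0.73 in middle and 0.21 in near-background promoters, or 0.29 near background without the receptors. The median GC content was 60.7%, 60.3% and 43.7% in the same order, with 50.3% near background without the receptors. Across the 10 groups of rising level the CpG median went from 0.15 in group 1 (0.22 without the receptors) to 0.81 in group 8 and 0.79 in group 10. Fast sarcomere promoters had a median of only 0.29 and slow ones 0.20. In complex I it was 0.86, in complexes II to V 0.85 and in cytosolic ribosomal genes 0.91. Glycolysis and glycogen genes lay between, at 0.62.

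Other motifs also varied. The CArG box was in 2.48% of abundant promoters and 1.28% of all matched. A MEF2-like pattern, CTA and TAG with any 4 bases between them, was in 3.30% of both. It is wider than the MEF2 core and also counts other sequences. On the muscle fibre lists together it was in 7.75% of 284 promoters, and on the Z-disc, M-band and giant protein list in 40.0% of 20, while the fast sarcomere list had none. The E-box CANNTG was in 63.5% of abundant, 64.5% of middle and 77.0% of near-background promoters. Searched on both strands, CATTCC was in 11.4%, 11.3% and 14.7% of those classes and CACCC in 63.9%, 63.0% and 42.1%. Without the receptors the near-background shares were 77.7% for CANNTG, 14.6% for CATTCC and 56.2% for CACCC. The patterns without a stated strand read the same on both. TATAAA overlapped the MEF2-like pattern in 14 promoters. A match is only a run of letters, and base composition differed between the classes.

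**Figure D4:**
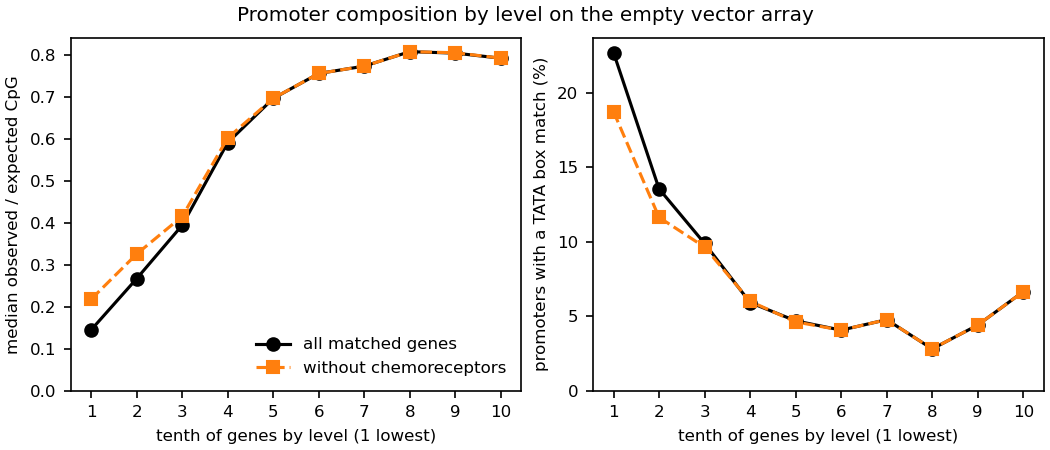
Median observed over expected CpG (left) and percent of promoters with a TATA box match on the gene's strand (right) for genes in 10 groups of rising level on the empty vector array, for 11950 matched genes (black) and without olfactory and vomeronasal receptors, those with newer symbols included (orange). The CpG median climbs from 0.15 in group 1 to 0.81 in group 8, and the share with a match anywhere in the 300 bases is highest in group 1 (22.7%), which does not hold for the 50 bases before the start (5.73%, against 5.77% in group 3).

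Markers of other cell types were measured beside the fibre genes. In a bulk extract, fewer cells of a type and less RNA per cell cannot be told apart. Of 153 measured markers on 11 lists, 14 were abundant, 122 were in the middle class and 17 near background, which is 9.15% abundant and 11.1% near background against 5.00% and 21.0% of all genes. The order of the list medians ran from fibroblasts (10.94) and macrophages (9.93) through endothelium (9.37), tendon (8.83) and smooth muscle (8.67) to neutrophils (4.95).

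Fibroblast and matrix genes had 8 of 19 abundant and none near background. Sparc (12.78), the proteoglycan decorin, Dcn (12.74), the collagen chains Col1a1 (12.46) and Col1a2 (11.88), and fibronectin, Fn1 (11.99), led them. The receptor Pdgfra, a defining marker of these cells, was at 9.26. The lowest were Col5a1 (8.12), Pi16 (7.69) and Fap (7.41). All 9 tendon genes were in the middle class, from Chad and Fmod (both 9.99) to Tnmd (6.92), a membrane protein of mature tendon.

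Vessel genes were in the middle class with a few abundant ones. All 17 endothelial markers were in the middle class, including Eng (10.55), Cdh5 (10.32) and Pecam1 (10.13), and the lowest was Robo4 (7.05). Of 12 smooth muscle and pericyte genes, Acta2 (12.33) and Rgs5 (11.87) were abundant. Acta2 is a close relative of Acta1. Of the 12 genes, 10 lay above the median of all genes, among them Myh11 (8.96), Mylk (8.39) and Smtn (8.38). The smooth muscle genes Cnn1 (7.06) and Lmod1 (7.07) lay below it.

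Macrophage markers had 20 of 22 genes above the median of all genes. Lysozyme, Lyz2 (11.96), and the adaptor Tyrobp (11.11) were abundant. The folate receptor Folr2 was at 10.68, complement C1qa at 10.56, the lipid-associated gene Gpnmb at 10.56, and Cd68 at 10.41. The growth factor receptor Csf1r was at 10.24 and Adgre1, the F4/80 antigen, at 9.27. The scavenger receptor Marco (5.82) was low, and Vsig4 (3.83), of resident macrophages, was near background.

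Lymphocyte markers were centred on the median of all genes. Their median was 7.49, with 11 of 20 above that of all genes. Cd4 (11.16) was the only abundant one of 20, against 5.00% of all genes, and in rats macrophages also carry it. Nkg7 stood at 10.11, Cd28 at 9.49 and granzyme Gzmb at 8.30. The signalling chains of the T cell receptor complex were at 8.12 (Cd3e), 7.50 (Cd3g) and 6.09 (Cd3d). The B cell marker Ms4a1 (4.70) was near background. Interferon response genes, which many cell types use, had 0 of 25 abundant, against 5.00% of all genes. Of the 25, 23 were above the median of all genes. Irf7 (10.72), Mx2 (10.66), Mx1 (10.22) and Usp18 (10.14) led them, the chemokine Cxcl9 was at 9.99, and Ifit1 (3.37) was near background although Ifit2 (9.38) and Ifit3 (8.88) were not.

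Neutrophil and mast cell genes were low. Of 11 neutrophil genes 6 were near background, including S100a9 (4.95) and S100a8 (3.12), while the receptor Csf3r (7.75) and Fcnb (7.63) were the highest. Mast cell genes had 3 of 9 near background. The carboxypeptidase Cpa3 (8.26) was highest, the chymase Cma1 was at 6.81 and the receptor Kit at 6.60. Ms4a2 (4.35) and Mcpt1 (3.60) were the lowest.

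Above the median of all genes lay 5 of 10 red cell genes, 3 of 11 fat cell genes and 1 of 13 Schwann cell and nerve genes. Globins led the red cell list, with the beta globins Hbb at 11.50 and Hbb-b1 at 10.39 and the alpha globin Hba-a3 at 8.30. Each has close relatives within its own family, so the values are uncertain. The globin Hbe1 (7.73) and Alas2 (7.67) were also above the median of all genes. The band 3 gene Slc4a1 was at 5.68 and Rhag at 3.37. In the fat cell list, Fabp4 (9.47) and hormone-sensitive lipase, Lipe (8.95), were highest, and both are also made in other cells. Cfd (7.81), another fat cell gene, was the only other member of the list above the median of all genes. The fat cell genes Adipoq (6.54), Plin1 (5.94) and Lep (5.05) were below it. Of the Schwann cell and nerve genes, Pmp22 (10.92) was alone above 7.32. Sox10 (6.70), Prx (6.16) and S100b (5.56) were lower, and the neurofilaments Nefl (4.82) and Nefm (4.70) were near background.

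**Figure D5:**
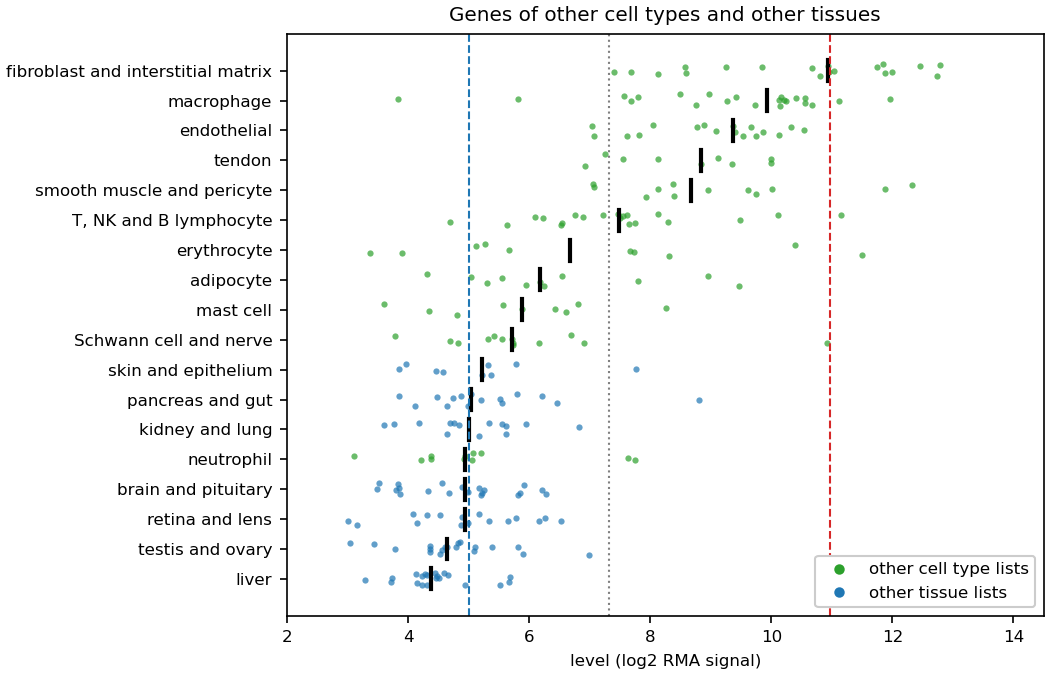
Level in log2 RMA signal of each measured marker (points) of other cell types in muscle (green) and of other tissues (blue), with list medians (black bars), the median of all genes (dotted line) and the limits of the near-background (5.01) and abundant (10.97) classes (dashed lines). Fibroblast and macrophage lists have the highest medians (10.94 and 9.93), and liver genes the lowest (4.38).

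Genes of other tissues showed how far signals reach without a known source in muscle. Liver genes were the lowest list, with 17 of 20 near background and a median of 4.38. Albumin, Alb, one of the highest transcripts of liver, stood at 4.60. Apoa2 (5.69), Apoa1 (5.67) and Hpd (5.51) were above the limit. Gonad genes had 13 of 19 near background, with Dazl at 3.05. Brain and pituitary genes had 11 of 20, retina and lens genes 9 of 16, kidney and lung genes 7 of 14, pancreas and gut genes 7 of 15, and skin genes 4 of 9.

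Only 2 of the 113 other-tissue genes lay above the median of all genes, the pancreatic carboxypeptidase Cpa1 (8.80) and the epithelial factor Tp63 (7.76). Next came the protamine Prm1 (7.00) and the receptor Ager (6.83). Among the receptor genes that set the limit, the median was 3.25, and 10 of 188 lay above 5.01, of which Olr1585 (7.14) was highest. The 10 lowest genes of the array, from 2.59 (Or5b104b) down to 2.41 (Or4c105), were all olfactory or vomeronasal receptors. The 95th percentile of the other-tissue genes was 6.35, so a gene between 5.01 and 6.35 has a signal that genes with no known role in muscle also reach.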

How the data were processed

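Total RNA of pooled muscle was hybridised on rat whole-transcript arrays. The deposited values are log2 levels per probe set made by the authors with RMA, a background correction, quantile normalization and median polish; the submitters' processing notes name it without a version. The log base was inferred from RMA and the range of values. For the chip description and the build, nothing is stated in the labels read here. RNA of 6 rats was pooled, per the labels' protocols.

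Only the empty vector column was used, as deposited. Of 29214 probe sets, 323 had several symbols and 13581 were not listed in the platform annotation, and neither kind was ranked. Of 936 symbols on 43 lists, 807 were measured, 3 through an updated symbol. Named genes were the 30 highest and 10 lowest, the 4 highest and 3 lowest members of each list (5 highest for other tissues and receptors), the family members and 3 genes on each side of a class limit, from which the text draws; a few further members were chosen after their values were seen. Members and lists were chosen with earlier results of these data known.

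No test was possible with 1 array. The way classes and motifs were counted was checked on simulated data with known answers, which tested none of the counts given here. Alternatives concerned the probe set kept, the class limits and the promoter window; those on newer receptor symbols, start sites and receptors left out were added after seeing the data. The number of arrays limits the precision. Quantile normalization hides changes in total RNA. Python 3.11.15 was used with pandas 2.3.3 and numpy 2.4.6 for the tables, scipy 1.17.1, and matplotlib 3.10.9 for plots.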

Additional observations from a re-analysis of the deposited data

Results flagged for a closer look

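Signal was also present in probe sets that the gene ranking did not use. Of the 13581 probe sets without a listed gene, 380 (2.80%) lay in the abundant range at or above 10.97, and the highest reached 14.04. Their median was 5.49, and 5546 of them (40.8%) were near background. Of the 323 probe sets with several symbols, 9 were in the abundant range and 173 near background.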

How the results depend on the processing

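Keeping another probe set moved the counts below by less than 1.5 times, but not those of every list. The number of abundant members moved further in 2 of 43 lists with the lowest probe set. It did so in 1 with the mean and in 3 with genes of a single probe set only. Of the 114 abundant genes with several probe sets, 65 had their lowest one below the limit. With the 90th percentile of the receptors as background 1935 genes and 36 list members were near background, with their 99th percentile 136 list members, and with the 95th percentile of other-tissue genes 5434 genes and 166 members, against 3041 and 88. With the abundant class as the top 1%, 97 list members were abundant against 244, the share of abundant promoters with TATAAA was 12.9%, the CpG median was 0.73, and 95 probe sets without a listed gene were in range; with the top 10% there were 686 of these. With TATAAA counted only in the 50 bases before the start the abundant share was 4.46%. Of 688 recomputed list counts and medians, 589 stayed close to the main value (within 1.5 times for counts, within the order-statistic interval for medians). Protein length by class was not run for want of protein sequences here. Array signal over background could not be set per probe, as no detection calls were used. No paired analysis was possible because each group had 1 array and nothing was compared between arrays.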

Other observations

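Of the 726 abundant genes, 482 were on no list. The highest of them after Mb, Car3 and H19 were Actb (13.40), the ubiquitin-conjugating enzyme Ube2d2 (13.38), B2m (13.32), the light chain of MHC class I, the chaperone Hspa8 (13.32) and Ndrg2 (13.25). Thioredoxin, Txn1 (13.12), the titin-binding Ankrd23 (13.12), Ccng1 (13.10), a target of p53, ferritin heavy chain, Fth1 (13.05), and Cd74 (12.80), the invariant chain of MHC class II, followed. Some of these rest on the choice of probe set. Mrpl42 stood at 13.03 with its highest and 9.73 with its lowest probe set, and Gnas at 12.94 and 7.92.

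Core clock genes were all above the median of all genes, 15 of 15, with a list median of 9.34. The repressors Bhlhe40 (11.74) and Nr1d1 (11.08) were abundant and the output factor Dbp was at 10.92. Bmal1 (7.92), Cry1 (7.66) and Per2 (7.50) were the lowest. The labels give the light cycle but no hour at which the muscles were taken.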
